A study of Mus musculus with 4 samples.

Results

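The genes that carry the myeloid lineage program and its growth factor receptors were followed from probe set to probe set in cells derived from mouse ES cells and sorted for KSP. The group was set by name, with 9 genes in 3 roles: the ligands Csf1 and Il34, the receptors Csf1r, Csf2ra and Csf3r, and the transcription factors Spi1, Irf8, Runx1 and Cebpb. All probe sets assigned to these genes alone were read, which gave 22 of 45037 probe sets and 9 of 18193 genes. After a filter on low signals, 8 of the 9 genes were among the 12849 genes tested, and Il34 was not.

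Macrophages, monocytes, granulocytes and dendritic cells arise from blood progenitors under the control of lineage transcription factors. PU.1, the product of Spi1, switches on the genes of the colony-stimulating factor receptors, and RUNX1, C/EBP-beta and IRF8 act with it at many of the same genes. CSF1 and IL-34, made largely by stromal and epithelial cells, then bind the receptor CSF1R on the myeloid cell and keep it alive, so that ligand and receptor are usually made by different cells.

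KSP, or cadherin 16, is an adhesion protein of renal tubular epithelium, and the study used an antibody against it to purify cells from differentiated ES cells. Both groups came from the CAG-GFP EB3 line of strain 129/Ola, which carries GFP under the ubiquitous CAG promoter, and both were exposed to Activin at 10 ng/mL and sorted on day 18 after embryoid body formation. KSP-positive cells (n = 2) and KSP-negative cells (n = 2) were both GFP-positive and propidium iodide-negative, and both had been incubated with an antibody to the Fc receptors CD16 and CD32 before the KSP antibody. RNA came from 2 independent experiments with 1 ES cell line, so p-values measure the spread between these samples only. In sorted bulk samples, fewer cells of a type and less RNA per cell cannot be told apart.

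Values are MAS5 signals, the brightness of a probe set on a linear scale, after a scaling that gave all arrays the same 75th percentile. Before scaling, the median signals of the arrays ran from 55.2 to 67.4. The 3′ to 5′ signal ratios of the actin control ran from 1.79 to 3.55, the highest in KSP-negative replicate 2. KSP-positive replicate 1 had an actin ratio of 2.92. It also had the highest ratio of the Gapdh control, 3.11, against 2.72 in KSP-negative replicate 2. In the other arrays both ratios ran from 1.79 to 2.02. Signals under a floor of 12.3 were set to it. Of 13 renal tubule markers, 11 had a probe set, 5 passed the filter, none rose and Lhx1 fell (adjusted p = 0.0346 from limma, and 0.258 without KSP-negative replicate 2). Cdh16, which encodes KSP, had a log2 difference of 0.34 (adjusted p = 0.816 from limma), and Umod and Slc12a3 were at the floor in all 4 arrays. The labelled separation is therefore named here by the antibody sort and not by Cdh16 RNA.

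Csf1r, the receptor tyrosine kinase for CSF1 and IL-34, was the 1 member that rose. Of the 8 members tested, 1 was higher in KSP-positive cells at an adjusted p under 0.05 (limma), against 1.84% of all genes tested. None was lower, against 1.65% of all genes, and none was lower at an unadjusted p under 0.05 either. The difference was over 2-fold in favor of KSP-positive cells for 4 members, Csf1r, Irf8, Csf3r and Csf1, against 7.92% of all genes. For 7 members both KSP-positive arrays lay above both KSP-negative arrays, against 24.4% of all genes, and Csf2ra was the exception. The median log2 difference over the 8 members was 1.06, beside -0.03 over all genes tested. These counts describe named genes that were chosen with results of these arrays known.

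**Figure D1:**
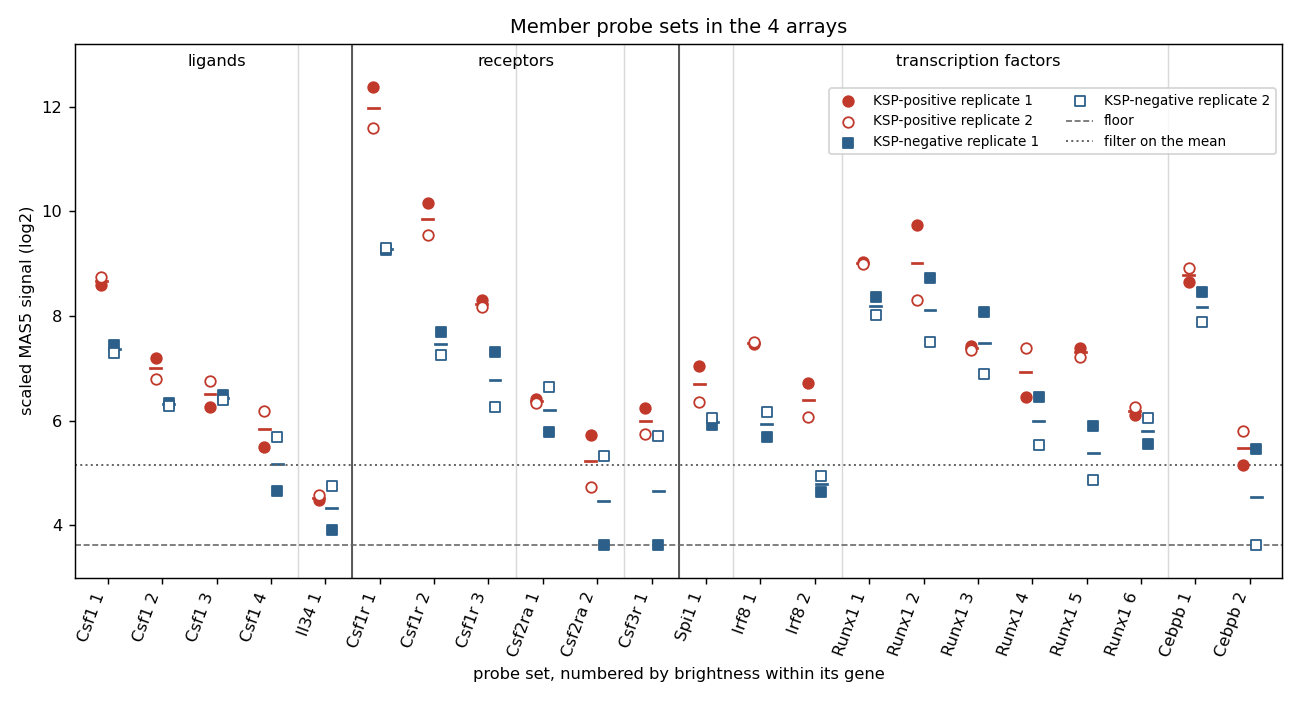
Scaled MAS5 signal (log2, vertical axis) of the 22 probe sets of the 9 genes in the 4 arrays, grouped by role and numbered by brightness within a gene. Round symbols stand for KSP-positive and square ones for KSP-negative arrays, short bars are group means, the dashed line is the floor (log2 3.62) and the dotted line the filter on the mean (log2 5.14). The first and second Csf1r probe sets show the widest gaps between group means, and the Il34 probe set lies under the filter.

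Csf1 encodes the main growth factor of macrophages. Its brightest probe set, 1460220, had signals of 388 and 427 in KSP-positive replicates 1 and 2, against 176 and 156 in the KSP-negative arrays. The groups did not overlap, and the arrays of each group lay close together. The difference was 2.46-fold (log2 1.30, standard error 0.36, 95% interval 0.51 to 2.09), with an adjusted p of 0.0806 from limma. The other Csf1 probe sets gave smaller log2 differences of 0.69, 0.07 and 0.67, and 2 of the 4 probe sets had groups that overlapped. Averaged over its probe sets, Csf1 had a log2 difference of 0.68.

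Il34 encodes the second ligand of the same receptor. Its single probe set had signals of 22.3 and 23.8 in the KSP-positive arrays and of 15.01 and 26.9 in the KSP-negative arrays. All lay under the filter, at a signal of 35.4, and the KSP-negative arrays lay on either side of the KSP-positive arrays. The log2 difference of the means was 0.20, and in a fit of all 18193 genes without the filter its 95% interval ran from -0.92 to 1.31 (adjusted p = 0.862 from limma). A difference of Il34 was not detectable at this signal.

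Csf1r was read by 3 probe sets, of which the brightest, 1419872, had signals of 5348 and 3072 in the KSP-positive arrays and 612 and 632 in the KSP-negative arrays. Both KSP-positive arrays lay far above both KSP-negative arrays, and replicate 1 was the higher of the KSP-positive pair. The difference was 6.52-fold (log2 2.70, standard error 0.36, 95% interval 1.90 to 3.51, adjusted p = 0.00532 from limma), the 64th highest among the 12849 genes. With each array left out in turn it stayed between 2.30 and 3.10. Without the filter on low signals no gene passed the threshold, and the adjusted p of Csf1r was then 0.289.

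The second Csf1r probe set, 1419873, had signals of 1150 and 747 against 206 and 153, a 5.22-fold rise. The third, 1423593, had 315 and 288 against 158 and 76.5, a log2 difference of 1.45 that did not pass the threshold over all probe sets (adjusted p = 0.219 from limma). All 3 probe sets separated the groups without overlap. Tested probe set by probe set, the members gave 2 calls among 19 probe sets, both of Csf1r and both higher, against 0.307% of the 27022 probe sets tested. Groups did not overlap for 14 of the 19, KSP-positive higher in each, against 20.9% of all probe sets. The other 3 of the 22 probe sets were under the filter.

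Csf3r encodes the receptor of G-CSF, the growth factor of neutrophils. Its probe set had signals of 75.3 and 53.6 in the KSP-positive arrays, of 52.1 in KSP-negative replicate 2, and was under the floor in KSP-negative replicate 1. KSP-positive replicate 2 and KSP-negative replicate 2 were therefore nearly equal. The log2 difference of 1.33 (95% interval -0.21 to 2.87, adjusted p = 0.355 from limma) was 0.28 without KSP-negative replicate 1 and 2.37 without KSP-negative replicate 2.

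Csf2ra encodes the ligand-binding chain of the GM-CSF receptor. Its brighter probe set had signals of 85.3 and 80.4 in the KSP-positive arrays, and of 55.1 and 99.5 in the KSP-negative arrays, which lay below and above them. The log2 difference was 0.16 (95% interval -0.89 to 1.21), and it turned to -0.26 without KSP-negative replicate 1. The dimmer probe set was under the filter, with signals of 53.2 and 26.4 against 39.9 and 1 array under the floor.

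**Figure D2:**
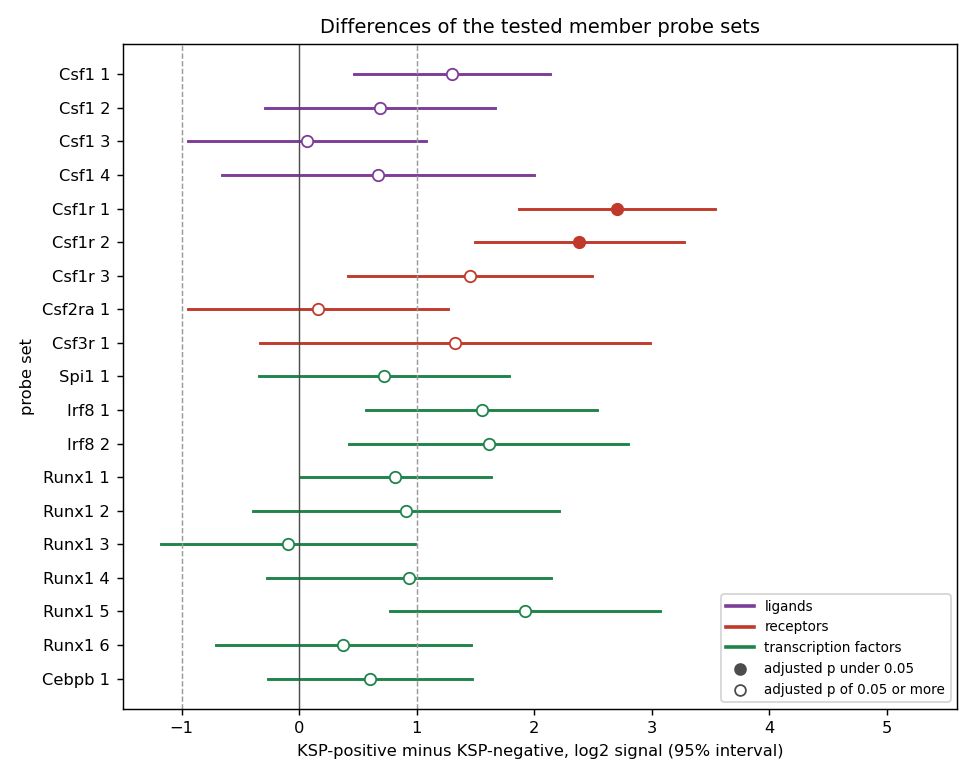
KSP-positive minus KSP-negative log2 signal (horizontal axis) for the 19 tested probe sets, with 95% intervals from limma as lines. Colors give the role, filled points an adjusted p under 0.05 over all probe sets, and dashed lines a 2-fold difference. Both filled points are Csf1r probe sets, and 18 of the 19 points lie above 0.

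Irf8, a factor of monocyte and dendritic cell development, had the second largest difference of the members. Probe set 1416714 had signals of 176 and 182 in the KSP-positive arrays and of 51.6 and 72.1 in the KSP-negative arrays. The KSP-positive arrays were almost equal and lay above both others. The difference was 2.93-fold (log2 1.55, standard error 0.42, 95% interval 0.62 to 2.48), with an adjusted p of 0.0772 from limma. The second probe set had signals of 106 and 67.3 against 24.9 and 30.6, a log2 difference of 1.61. Both probe sets were designed on the same source sequence.

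Runx1, needed for the first blood stem cells and active in later myeloid cells, was read by 6 probe sets. The brightest, 1440878, had signals of 521 and 512 in the KSP-positive arrays and of 329 and 261 in the KSP-negative arrays. These did not overlap, with a log2 difference of 0.82 (95% interval 0.04 to 1.59, adjusted p = 0.254 from limma). Probe set 1427650 showed a larger gap, with 167 and 150 against 59.8 and 29.1 (log2 difference 1.92, adjusted p = 0.151 from limma). Probe set 1452531 showed none, with 172 and 164 lying between the KSP-negative signals of 270 and 119 (log2 difference -0.09). The probe sets of Runx1 therefore differed among themselves. In 4 of the 6 both KSP-positive arrays lay above both KSP-negative arrays, against 20.9% of all probe sets tested. None of the 6 was called, and they read the same RNA.

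Spi1, the master factor of the lineage, lay at the 55.7th percentile of mean signal over all probe sets. Its single probe set had signals of 132 and 82.2 in the KSP-positive arrays and of 60.4 and 66.3 in the KSP-negative arrays. The groups did not overlap, and KSP-positive replicate 1 was the highest, as for Csf1r. The difference was 1.65-fold (log2 0.72, standard error 0.46, 95% interval -0.29 to 1.74, adjusted p = 0.454 from limma). Without KSP-positive replicate 1 it was 0.38.

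Cebpb, induced in macrophages and in many stressed or cytokine-treated cells, had signals of 400 and 482 in the KSP-positive arrays and of 350 and 237 in the KSP-negative arrays. The groups stood close without overlapping, with a log2 difference of 0.61 (95% interval -0.21 to 1.43, adjusted p = 0.435 from limma). Its second probe set was under the filter.

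Within each array, the log2 signal of Csf1r was set against that of each other member, which removes whatever scales a whole array. Csf1r exceeded Csf1 by 3.78 and 2.85 in the KSP-positive arrays and by 1.80 and 2.02 in the KSP-negative arrays. Against Spi1 it gained from 3.34 and 3.25 in the KSP-negative arrays to 5.34 and 5.22 in the KSP-positive arrays. Differences between arrays are meaningful here, while the levels of separate probe sets are not comparable. For all 7 other members tested, both KSP-positive values lay above both KSP-negative values. The differences between the group means ran from 1.15 for Irf8 to 2.54 for Csf2ra on the log2 scale. The groups came closest for Csf3r, at 5.84 in KSP-positive replicate 2 and 5.64 in KSP-negative replicate 1, where Csf3r was at the floor. The comparison was made around the member with the largest difference, so the separation was largely set by that choice. It is therefore no result about the other members, and the share of all genes that would separate likewise was not computed. With 2 arrays against 2, no two-sided exact permutation p under 0.333 is possible.

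The genes whose centred log2 signals over the 4 arrays lay nearest to those of Csf1r, among 12719 genes with no array at the floor, were Gucy1a1, Kcnq3, Ncf4, Lipm and Ms4a4c. Their root mean square distances ran from 0.0892 for Gucy1a1 to 0.209 for Ms4a4c. Ncf4, a subunit of the phagocyte oxidase, had signals of 359 and 230 against 50.8 and 59.98. The nearest to Spi1 were Serinc3, 2410006H16Rik, Zscan12, Gpr137b and Was, at distances from 0.0227 to 0.0508. None of these 5 had an adjusted p under 0.05, and Was, a regulator of actin in blood cells, had signals of 90.7 and 52.7 against 42.2 and 46.2.

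The promoters of the members were read for the letters that PU.1 binds. Whether PU.1 had a part in the differences was not tested. RefSeq sequence (GRCm38.p6) was at hand for 8 windows of 6 members, each the 250 bases before an annotated start, and not for Spi1, Il34 and Csf1r. The core GAGGAA, on either strand, was found in 23.3% of 32851 such windows. It occurred in 3 of the 8 windows, which are given here 5′ to 3′ along the gene with the core, or its reverse complement TTCCTC, in capitals, beside the first of the 2 Irf8 windows, which has none.
Csf2ra, chr19:61228419-61228668, minus strand: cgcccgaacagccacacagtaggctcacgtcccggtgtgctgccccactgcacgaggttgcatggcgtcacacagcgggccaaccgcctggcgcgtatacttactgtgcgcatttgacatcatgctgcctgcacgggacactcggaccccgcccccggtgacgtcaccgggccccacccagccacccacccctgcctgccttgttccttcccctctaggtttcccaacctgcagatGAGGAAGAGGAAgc
Csf3r, chr4:126024409-126024658, plus strand: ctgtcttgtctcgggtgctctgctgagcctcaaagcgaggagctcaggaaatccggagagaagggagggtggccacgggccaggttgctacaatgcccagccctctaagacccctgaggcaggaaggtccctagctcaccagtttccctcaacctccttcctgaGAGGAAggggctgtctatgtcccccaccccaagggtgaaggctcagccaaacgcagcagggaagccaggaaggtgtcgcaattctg
Runx1, chr16:92697330-92697579, minus strand: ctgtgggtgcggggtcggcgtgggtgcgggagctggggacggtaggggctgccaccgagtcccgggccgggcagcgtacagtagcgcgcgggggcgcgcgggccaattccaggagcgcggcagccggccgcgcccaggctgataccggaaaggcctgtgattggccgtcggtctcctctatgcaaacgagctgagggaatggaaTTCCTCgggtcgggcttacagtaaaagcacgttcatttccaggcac
Irf8, chr8:120736108-120736357, plus strand: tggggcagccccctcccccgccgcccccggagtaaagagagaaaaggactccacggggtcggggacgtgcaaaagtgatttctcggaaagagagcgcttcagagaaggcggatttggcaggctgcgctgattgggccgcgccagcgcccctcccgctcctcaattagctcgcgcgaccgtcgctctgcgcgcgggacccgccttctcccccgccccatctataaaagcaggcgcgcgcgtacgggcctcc

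In Csf2ra the core stands in tandem, 14 and 8 bases before the start, in Csf3r 86 and in the second Runx1 window 46 bases before it. Of the members with a core, Csf2ra had a log2 difference of 0.16, the smallest of the 8 tested, Csf3r of 1.33 and Runx1 of 0.82. Of those with none in these windows, Irf8 had a log2 difference of 1.55, Csf1 of 1.30 and Cebpb of 0.61. The Runx core TGTGGT, searched on either strand as well, was in 14% of all windows and in none of the members' windows. A match is a run of letters and not a measured binding site.

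The rest of the pathway was read from gene lists. Of 10 other haematopoietic cytokines, 3 passed the filter, and Il6, made by macrophages and fibroblasts among others, rose (log2 difference 3.08, adjusted p = 0.0266 from limma). Its signals were 164 and 519 against 57.1 and 20.8, and without KSP-negative replicate 2 its adjusted p was 0.148. Tnfsf11, the osteoclast factor RANKL, had a log2 difference of -1.47 and Kitl, the ligand of Kit, of -0.42, and neither passed the test. Il3 was at the floor in all 4 arrays, and Csf2, which encodes GM-CSF, in both KSP-negative arrays.

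Of 9 other cytokine receptors tested, Csf2rb, the signalling chain shared by the receptors of GM-CSF, IL-3 and IL-5, rose (log2 difference 1.64, adjusted p = 0.0494 from limma). Csf2rb signals were 326 and 304 against 81.9 and 125, whereas its partner Csf2ra overlapped between the groups. Csf2rb2, the second beta chain of the mouse, had a log2 difference of 2.01 and Il10rb of 1.54, with adjusted p of 0.0701 and 0.0737. Kit, the receptor of blood progenitors, mast cells and melanocytes, had a log2 difference of -0.08. The median log2 difference of the 9 was 0.42. The call of Csf2rb was lost when any array was left out, with adjusted p from 0.0535 without KSP-positive replicate 2 to 0.134 without KSP-positive replicate 1. It was also lost with quantile normalization (0.0613) and with unscaled values (0.076), while Csf2rb2 passed with unscaled values (0.0226) and both Csf2rb2 and Il10rb passed without KSP-positive replicate 2 (0.0197 and 0.0115).

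Transcription factors related to the members gave 2 calls among the 52 tested in 6 lists, 1 in each direction. Over all genes tested, 1.84% were called higher and 1.65% lower. Cebpd, a C/EBP factor of the acute phase response, rose (signals of 582 and 785 against 262 and 159, log2 difference 1.73, adjusted p = 0.0386 from limma). Cebpa, which drives the granulocyte branch, had a log2 difference of -0.29. Myb, a factor of blood progenitors, fell (28.7 and 37.7 against 114 and 358, 6.15-fold lower, adjusted p = 0.0333 from limma). Neither call held without KSP-negative replicate 2 (adjusted p of 0.204 for Cebpd and 0.252 for Myb), and that of Cebpd was also lost without KSP-positive replicate 2 (0.0806), with unscaled values (0.0843) and without the intensity trend (0.0679). Averaged over its probe sets, Cebpd had a log2 difference of 0.92 (adjusted p = 0.182 from limma). The adjusted p of Myb was 0.0521 with quantile normalization and 0.0501 averaged over its probe sets. No interferon regulatory factor, Runx family gene, Ets factor or other macrophage factor passed the test, with 5, 5, 8 and 17 tested. The values nearest to it were those of Runx1t1 (log2 difference 1.58) and Zeb2, a factor of macrophages and of mesenchyme (1.59), each with an adjusted p of 0.0688. Both passed without KSP-positive replicate 2 (0.0119 and 0.0079), Zeb2 without KSP-negative replicate 1 (0.0473), and Runx1t1 with unscaled values (0.0371) and with quantile normalization (0.0496). Among 13 blood stem and progenitor factors, 6 had a difference above 0, with a median of -0.23.

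Downstream of CSF1R, 24 genes of signal transduction were tested, and Tyrobp, the adaptor DAP12 of myeloid receptors, rose (1040 and 591 against 162 and 171, log2 difference 2.23, adjusted p = 0.0137 from limma). Leaving out KSP-negative replicate 2 gave Tyrobp an adjusted p of 0.0513. Tyrobp was the 1 gene of the 24 called, against 1.84% of all genes tested called higher. The difference was over 2-fold in favor of KSP-positive cells for 4 of the 24, against 7.92% of all genes tested. It was over 2-fold the other way for 2, Pik3r1 (log2 difference -1.10) and Pik3cd (-1.32). The median log2 difference of the 24 was 0.23. Of 16 known targets of PU.1 tested, 9 were higher at an adjusted p under 0.05 (limma), against 1.84% of all genes tested. None was lower, and the median log2 difference of the 16 was 2.26. Fcgr1 and Cd68 of this list are also on the list of macrophage markers, and Cd14 on that of monocytes. Lyz2, lysozyme of macrophages and neutrophils, had signals of 2230 and 1050 against 96.4 and 59.6. Mpeg1, a pore-forming protein of macrophages, had 1637 and 801 against 96.3 and 71.1. Cd14, a receptor for bacterial lipopolysaccharide, had a log2 difference of 2.84 and Fcgr1, a high-affinity Fc receptor, of 4.47, with 1 KSP-negative array of Fcgr1 at the floor. The log2 difference of Fcgr1 was 3.15 under a higher floor (40th percentile) and 2.78 averaged over its probe sets, and it passed the test in both. Spi1 itself differed by a log2 of 0.72 in the same arrays.

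**Figure D3:**
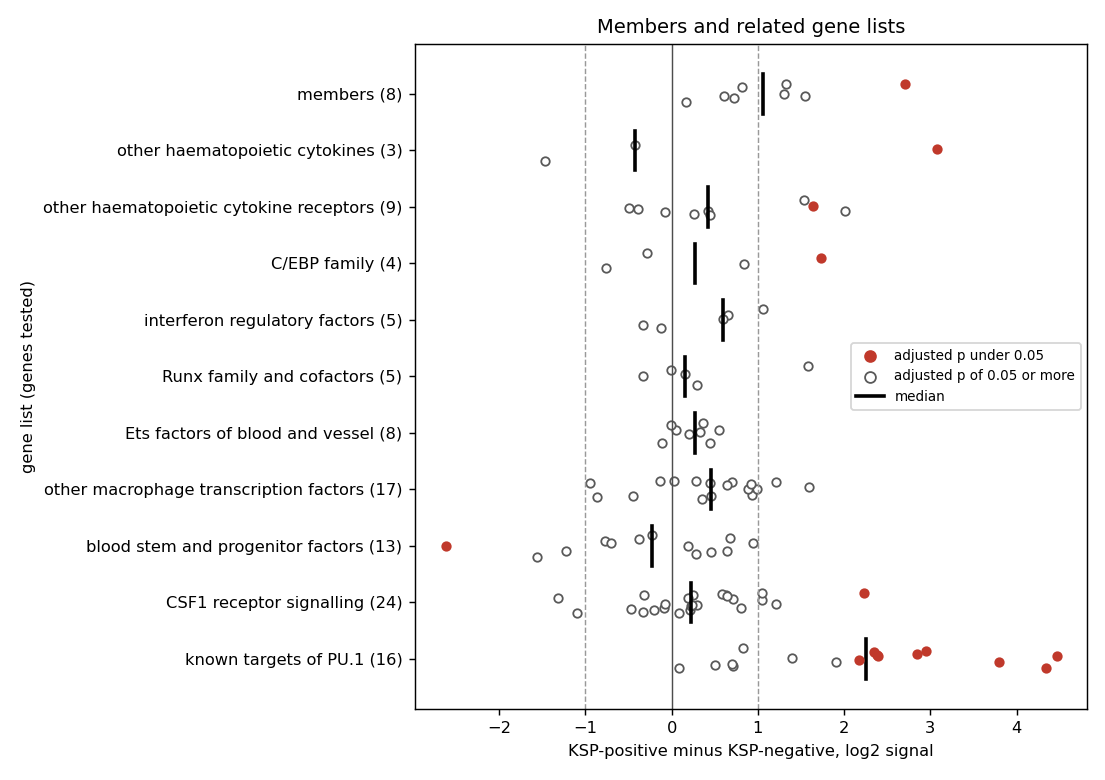
KSP-positive minus KSP-negative log2 signal (horizontal axis) for the 8 tested members and of the genes of 10 related lists, 1 point a gene, with the number tested in brackets. Red marks an adjusted p under 0.05, a black bar the median of a list, and a dashed line a 2-fold difference. The median is 1.06 for the members, 2.26 for the targets of PU.1 and -0.42 to 0.59 for the other lists.

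Markers of macrophages moved with Csf1r. Csf1r is itself on that list of 12, and Cd163 was at the floor in all arrays. Over all genes tested, 1.84% rose, and 24.4% had both KSP-positive arrays above both KSP-negative arrays. Of the 10 other markers tested, 7 rose, none fell and all 10 had groups that did not overlap. Their summed signal without Csf1r was 10298 and 4567 in the KSP-positive arrays and 864 and 619 in the KSP-negative arrays, with replicate 1 the higher of each pair, as for Csf1r in the KSP-positive cells. C1qa, a chain of the complement component C1q, had signals of 663 and 466 and was under the floor in both KSP-negative arrays. Adgre1, which encodes F4/80, had 1162 and 567 against 74.0 and 108. Of the mesenchymal markers, 5 of 11 rose, against 1.84% of all genes tested, and none fell. Their summed signal was 67154 and 49961 against 31480 and 17030. The part of either cell type in the results for Csf1r, Csf1 and the transcription factors was not tested.

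Other branches of the lineage gave few calls. Of 14 neutrophil markers, 12 had a probe set and 2 passed the filter, neither of them called, with Camp and Cxcr2 at the floor in all arrays. Their summed signals of 332 and 295 in the KSP-positive arrays and 316 and 328 in the KSP-negative arrays overlapped, as did the Csf3r arrays nearly (53.6 in KSP-positive replicate 2 and 52.1 in KSP-negative replicate 2). Of 5 dendritic cell markers tested none was called, and the summed signals were 883 and 946 against 539 and 454. H2-Ab1 and H2-Aa had log2 differences of 1.14 and 2.42, and Itgax, Zbtb46 and Cd74 of 0.48, 0.31 and 0.09. Of 5 monocyte markers Cd14 rose. None of the 5 osteoclast, 2 mast cell or basophil, 2 microglial, 3 lymphocyte, 5 erythroid or megakaryocyte and 10 endothelial or haemogenic endothelial markers tested was called. Their lists held 8, 10, 7, 14, 11 and 10 genes in that order, and most lymphocyte, mast cell and microglial genes were not tested. Atp6v0d2 of the osteoclast list and Il7r and Ebf1 of the lymphocyte list were over 2-fold higher (log2 differences 2.33, 2.03 and 1.26). Calcr, Sall1 and Sox17, of the osteoclast, microglial and endothelial lists, were over 2-fold lower (-1.11, -1.85 and -1.90). Among the 6 epidermal markers tested Krt10 rose. Only 3 of these 6 had a difference above 0, and their median log2 difference was -0.31. Among the neuronal markers Stmn2 fell, but not without either KSP-negative array, nor averaged over its probe sets (adjusted p = 0.108 from limma). Of 10 markers of undifferentiated cells 9 fell, against 1.65% of all genes tested.

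**Figure D4:**
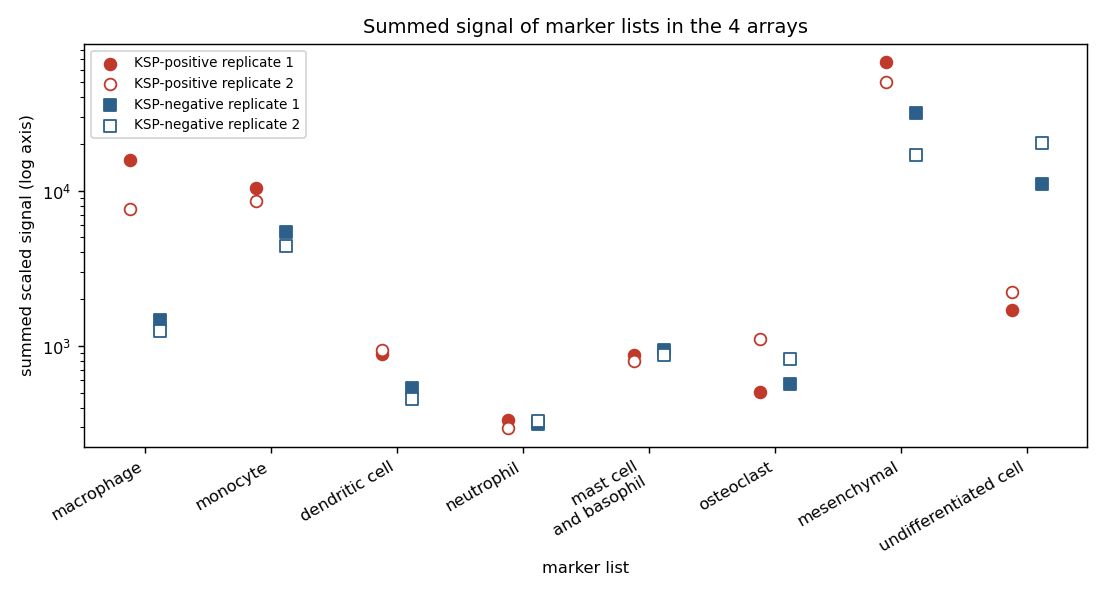
Summed scaled signal (log axis) of 8 marker lists by array, where round symbols are the KSP-positive and square ones the KSP-negative samples. Macrophage markers, which include Csf1r, summed to 15646 and 7639 in the KSP-positive arrays and to 1476 and 1251 in the KSP-negative arrays, while the sums of the neutrophil list overlapped.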

How the data were processed

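Expression was measured in 4 samples, 2 of KSP-positive and 2 of KSP-negative cells, grouped by their GEO labels. For each array of the Affymetrix mouse genome type, the authors deposited 1 linear signal intensity per probe set, made with MAS5 per the submitters' processing notes. The paper's methods name GeneSpring for the analysis, which was not repeated. No column of per-sample values was left unused (0 columns).

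Arrays were scaled to a common 75th percentile, raised to a floor at the 20th percentile and log2-transformed. A probe set entered where its mean exceeded the 40th percentile (27022 did), and the brightest probe set of 1 gene stood for it. Gene names came from the platform annotation, updated where tables allowed. Differences were tested in limma 3.58.1 under R 4.3.3 (empirical Bayes with an intensity trend, two-sided, Benjamini-Hochberg over all genes or probe sets tested). The floor means that a difference of a gene at the floor depends on it. The number of arrays limits the precision. Samples were not paired, because no source ties the replicate numbers to the 2 experiments. Deviations of equal numbers correlated at r = 0.17 across genes, from 1 correlation over 2 pairs, and the fit with the number as a block is given with the alternatives.

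Named were all members, the 5 genes nearest to Csf1r and to Spi1, and genes picked from the pathway and marker lists. Most of these list genes were among those of smallest p, but the order of p was not followed throughout. Not every called gene of a list was named. Cdh16 and genes at the floor in several arrays were named after their values were seen. The members and lists were chosen with earlier results of these data known. Alternatives changed the scaling, floor, filter, probe set rule, variance model, block, test and arrays. The fits were tested on simulated data. Promoter windows were from RefSeq (GRCm38.p6). Figures were drawn with matplotlib 3.10.9.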

Additional observations from a re-analysis of the deposited data

How the results depend on the processing

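Csf1r was higher in KSP-positive cells in all 17 alternatives run for it, with log2 differences from 2.18 to 3.10, and passed the threshold in 15, the exceptions being no filter (adjusted p = 0.289) and the methods' t-test after Benjamini-Hochberg (0.493). The count of members higher was 1, and 0 in both of these. With the replicate number as a block (replicate block) it was 3, Csf1 and Irf8 having adjusted p of 0.0295 and 0.0363 (Runx1t1 and Zeb2 then had 0.0257 and 0.0057), and with the methods' t-test unadjusted it was 4. Members over 2-fold higher fell from 4 to 2 with the filter at the 60th percentile, which left fewer members to test. Member probe sets called higher, 2, were 1 with quantile normalization and with the floor at the 40th percentile, 0 without the filter, without the intensity trend and with the methods' t-test after Benjamini-Hochberg, 6 with the replicate block and 6 with that t-test unadjusted (alternatives chosen after seeing the data). With arrays left out they ran from 0, without KSP-negative replicate 2, to 2. The log2 difference of Csf2ra ran from -0.26, without KSP-negative replicate 1, to 0.59, without KSP-negative replicate 2. The cause of these shifts was not tested.

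Over all genes, 236 higher and 212 lower became 571 and 560 with the replicate block, 666 and 570 with the methods' t-test unadjusted, 0 and 0 without the filter and with that t-test after Benjamini-Hochberg, 368 and 424 without KSP-positive replicate 2, and 72 and 52 without KSP-negative replicate 2. Unscaled, 352 were lower. Among 563 values of 34 other genes named, 449 kept direction and side of the threshold, 100 lost the threshold, 13 gained it and 1 reversed, Kit. With arrays left out its log2 difference ran from -0.18, without KSP-negative replicate 2, to 0.014, without KSP-negative replicate 1, and it was -0.46 averaged over its probe sets. With 2 arrays a group and members near the floor, a missed threshold does not show equal expression.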
